A study of Mus musculus with 12 samples.

Results

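The interferon-induced GTPases described here are 10 genes, chosen by symbol from the gene-level count files of 12 mouse monocyte libraries: the guanylate-binding proteins Gbp2, Gbp3, Gbp5 and Gbp7, and the immunity-related GTPases (IRGs) Irgm1, Irgm2, Igtp, Iigp1, Ifi47 and Tgtp1. They are 10 of the 54532 genes listed in the files. All 10 had counts and passed the filter on low counts, among 14324 genes tested. The cells were CD11b+Ly6Chi monocytes sorted from mouse bone marrow, the inflammatory (classical) monocyte fraction, and the assay was bulk RNA sequencing of total RNA. Control mice received no succinate and the other mice received 300 mM succinate over 7 days. The sorted cells were then left without LPS (lipopolysaccharide, the outer-membrane glycolipid of Gram-negative bacteria) or were exposed to it in culture for 4 h. This gave 4 groups of 3 libraries, with cells of control and of succinate mice each kept both ways. The sources used here do not give strain, age, route of dosing, LPS dose or whether a library was 1 mouse or a pool. The p-values therefore measure only the spread between libraries of a group, which may be technical.

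Both families are large or medium-sized GTPases that interferons induce and that defend cells against intracellular microbes. Guanylate-binding proteins assemble as oligomers on the vacuoles of pathogens and on cytosolic bacteria, where they open the way to caspase-11 (Casp4 in the mouse) and inflammasome responses; several of them, Gbp2 and Gbp5 among them, carry a lipid anchor added by prenylation. IRGs act on the same vacuoles: Irgm1, Irgm2 and Igtp (also named Irgm3) sit on host membranes and hold the effector IRGs inactive there, while the effectors Iigp1 (Irga6), Ifi47 (Irgd) and Tgtp1 (Irgb6) load onto and disrupt the vacuole. Their genes are classical targets of interferon signalling, through GAS elements for interferon gamma and through ISRE elements, which ISGF3 and the IRF proteins bind, for type I interferon. In myeloid cells LPS reaches them mainly through TLR4, TRIF, IRF3 and the interferon beta that the cells then release.

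In GENCODE M21 (GRCm38, the mm10 build), the 4 guanylate-binding protein genes lie together on the plus strand of chromosome 3: Gbp5 at chr3:142493978-142522344, Gbp7 at chr3:142530342-142550149, Gbp3 at chr3:142560026-142573209 and Gbp2 at chr3:142620602-142638008. Of the IRGs, Irgm1 (chr11:48861968-48871683, minus strand), Tgtp1 (chr11:48985327-48994172, minus strand) and Ifi47 (chr11:49076587-49096974, plus strand) form one chromosome 11 cluster, and Igtp (chr11:58199556-58207591) and Irgm2 (chr11:58199618-58222782) overlap each other on the plus strand of the other. All members are protein-coding genes. RefSeq promoter windows (GRCm38.p6, 250 bases before to 50 after the start) were found for 9 of the 10 members. They were searched on both strands for the ISRE core (GAAA, any 2 bases, GAAA), the GAS core TTCNNNGAA and the kappaB motif, and the ISRE core was present for 8 of the 9 members, against 3.44% of 32851 promoter windows. GAS cores were found for 5 members (Gbp5, Gbp7, Irgm2, Igtp and Tgtp1), against 8.3% of windows. These are letter matches, not measured binding sites.

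The sequences of 3 IRG promoters are shown first because they share one arrangement, a GAS core followed after 2 bases by an ISRE core. Capitals mark those cores; each run is read 5′ to 3′ on the strand of the gene and lies outside annotated exons. They are Irgm2 at chr11:58214890-58214934 (plus strand, within the longer Irgm2 gene body), Igtp at chr11:58199499-58199543 (plus strand), Tgtp1 at chr11:48992302-48992346 (minus strand), and, for comparison, its near copy Tgtp2 at chr11:49064261-49064305 (minus strand).
Irgm2: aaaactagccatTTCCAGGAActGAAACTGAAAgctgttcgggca
Igtp: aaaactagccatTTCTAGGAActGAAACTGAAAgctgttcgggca
Tgtp1: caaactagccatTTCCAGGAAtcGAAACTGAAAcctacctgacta
Tgtp2: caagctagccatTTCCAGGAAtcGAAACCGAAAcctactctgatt

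Counting from the first base of the GAS core and taking the Irgm2 base first, the 21-base element of Igtp differed at 1 position (C4T), that of Tgtp1 at 2 (C10T and T11C) and that of Tgtp2 at 3 (C10T, T11C and T17C). This arrangement of GAS core, 2 bases and ISRE core, on either strand, was in 5 of the 32851 windows, or 0.0152%: those of Irgm2, Igtp, Tgtp1, Tgtp2 and Gm12185, another gene of the IRG cluster. It was searched for after it had been seen in these promoters, so its rarity is a description. The element lay close to the start in each: its last base was at -55 in Irgm2, -25 in Igtp and -68 in Tgtp1.

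The next promoters are those of the other members with an ISRE core but without that arrangement, apart from Gbp5. They are Gbp2 at chr3:142620592-142620625 (of which 24 bases lie in the first annotated exon), Gbp3 at chr3:142559987-142560026 (1 exonic base), Gbp7 at chr3:142530218-142530304 (no exonic base) and Irgm1 at chr11:48871430-48871455 (minus strand, within an annotated exon). Capitals again mark ISRE and GAS cores; in the 3 guanylate-binding protein genes the ISRE core is on the opposite strand and reads as its complement.
Gbp2: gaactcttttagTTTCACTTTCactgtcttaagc
Gbp3: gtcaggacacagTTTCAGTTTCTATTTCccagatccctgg
Gbp7: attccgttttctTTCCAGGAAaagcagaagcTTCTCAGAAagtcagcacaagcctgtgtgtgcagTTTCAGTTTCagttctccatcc
Irgm1: ttcaaGAAATAGAAACCGAAActgat

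Gbp3 and Irgm1 each held 2 overlapping ISRE cores. The promoter of Gbp5, the member with the largest fitted LPS fold change among those with counts in every group, was the only one of the 9 with a kappaB match (4.51% of all windows held one), between a distal pair of GAS and ISRE cores and a proximal GAS core. Its window is chr3:142496684-142496902, plus strand, with 3 exonic bases at its end.
Gbp5: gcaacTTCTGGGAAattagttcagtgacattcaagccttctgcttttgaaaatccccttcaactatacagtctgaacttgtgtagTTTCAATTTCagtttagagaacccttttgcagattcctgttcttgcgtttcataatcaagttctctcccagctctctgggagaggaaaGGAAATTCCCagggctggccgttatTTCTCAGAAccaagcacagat

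Ifi47 had none of the 3 motifs in its window, which says only that these letters are not there. The second RefSeq start of Gbp3 had none either.

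**Figure D1:**
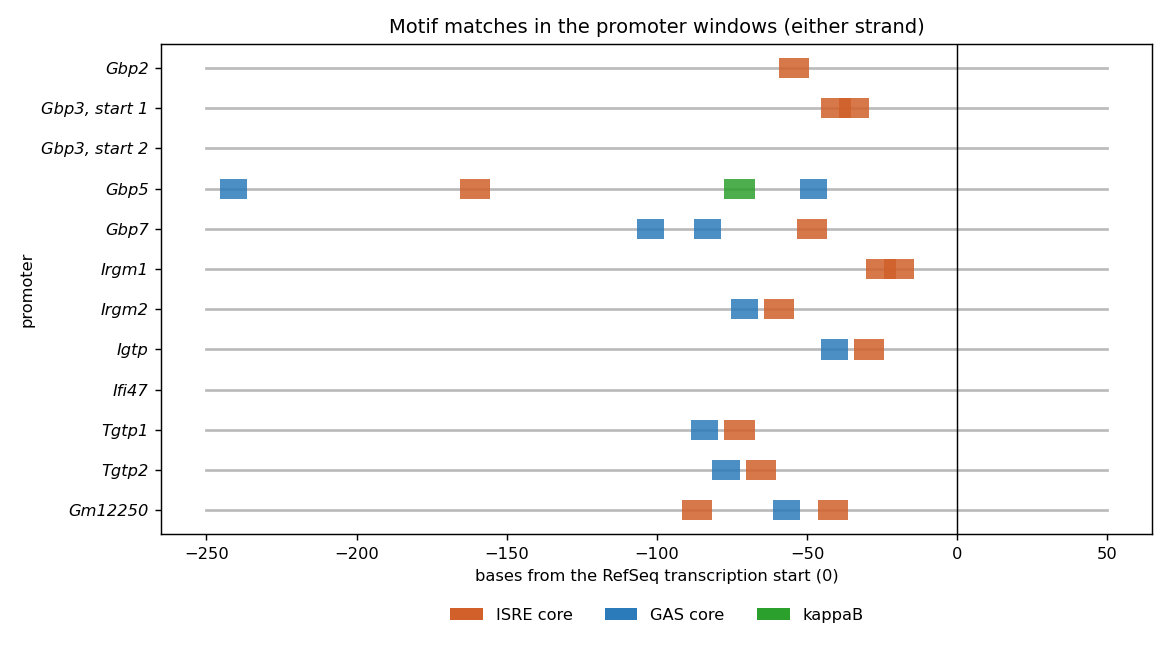
Motif matches in the RefSeq promoter windows of the members and of Tgtp2 and Gm12250; the x axis is the distance in bases from the transcription start, and coloured blocks are ISRE core, GAS core and kappaB matches on either strand. The GAS and ISRE blocks sit side by side in Irgm2, Igtp, Tgtp1 and Tgtp2, and Gbp5 carries the only kappaB block.

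Library totals were 15975882 to 18306747 counts, with 19429 to 21183 genes detected. Replicates of a group differed by more than sampling noise (chi-square per degree of freedom 6.95 to 43.4 over 12 pairs). The Ly6C-high monocyte markers were all detected, at a summed 4861 to 8511 CPM (counts after scaling every library to the same sum) in the 12 libraries. NK and T cell markers, the usual source of interferon gamma, summed to 1.58 to 6.19 CPM with 1 of 9 (Il2rb) passing the filter, whereas neutrophil markers summed to 3994 to 9739 CPM. A set of 5 genes, mostly ribosomal genes or pseudogenes chosen on these libraries, split the libraries into a high and a low class. The classes were spread unevenly over the groups, so class and group are partly confounded. Replicates 2 and 3 of both groups without LPS and control LPS replicate 3 were high, and all 3 succinate LPS libraries were low. With this class as a covariate 9 members were called for LPS in control mice, 10 in succinate mice and 0 in each of the other 3 tests. Fits within a class are given below for Iigp1, Tgtp1 and Igtp; the part of the marker levels was not tested. In bulk RNA, fewer cells of a type and less RNA per cell cannot be told apart.

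Without LPS the GTPases were modestly expressed, and Irgm1 was highest in control mice. Levels are compared between genes as CPM per kilobase of exon, written here as CPM/kb. In control mice without LPS, Irgm1 was highest at 3.93 CPM/kb (range 3.53 to 4.28), followed by Ifi47 at 2.82 (2.65 to 3.02). Their ranges did not overlap. Irgm2 (2.24 CPM/kb), Igtp (2.23), Gbp2 (1.64) and Gbp3 (1.44) followed, each overlapping the next. Gbp7 at 0.647 CPM/kb and Gbp5 at 0.232 were lower, without overlap between Gbp3 and Gbp7 or between Gbp7 and Gbp5. Tgtp1 (0.0709 CPM/kb) and Iigp1 (no count) closed the order. The 10 genes summed to 56.8 ± 3.24 CPM in control mice and 57.2 ± 6.55 CPM in succinate mice (SD, n = 3).

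**Figure D2:**
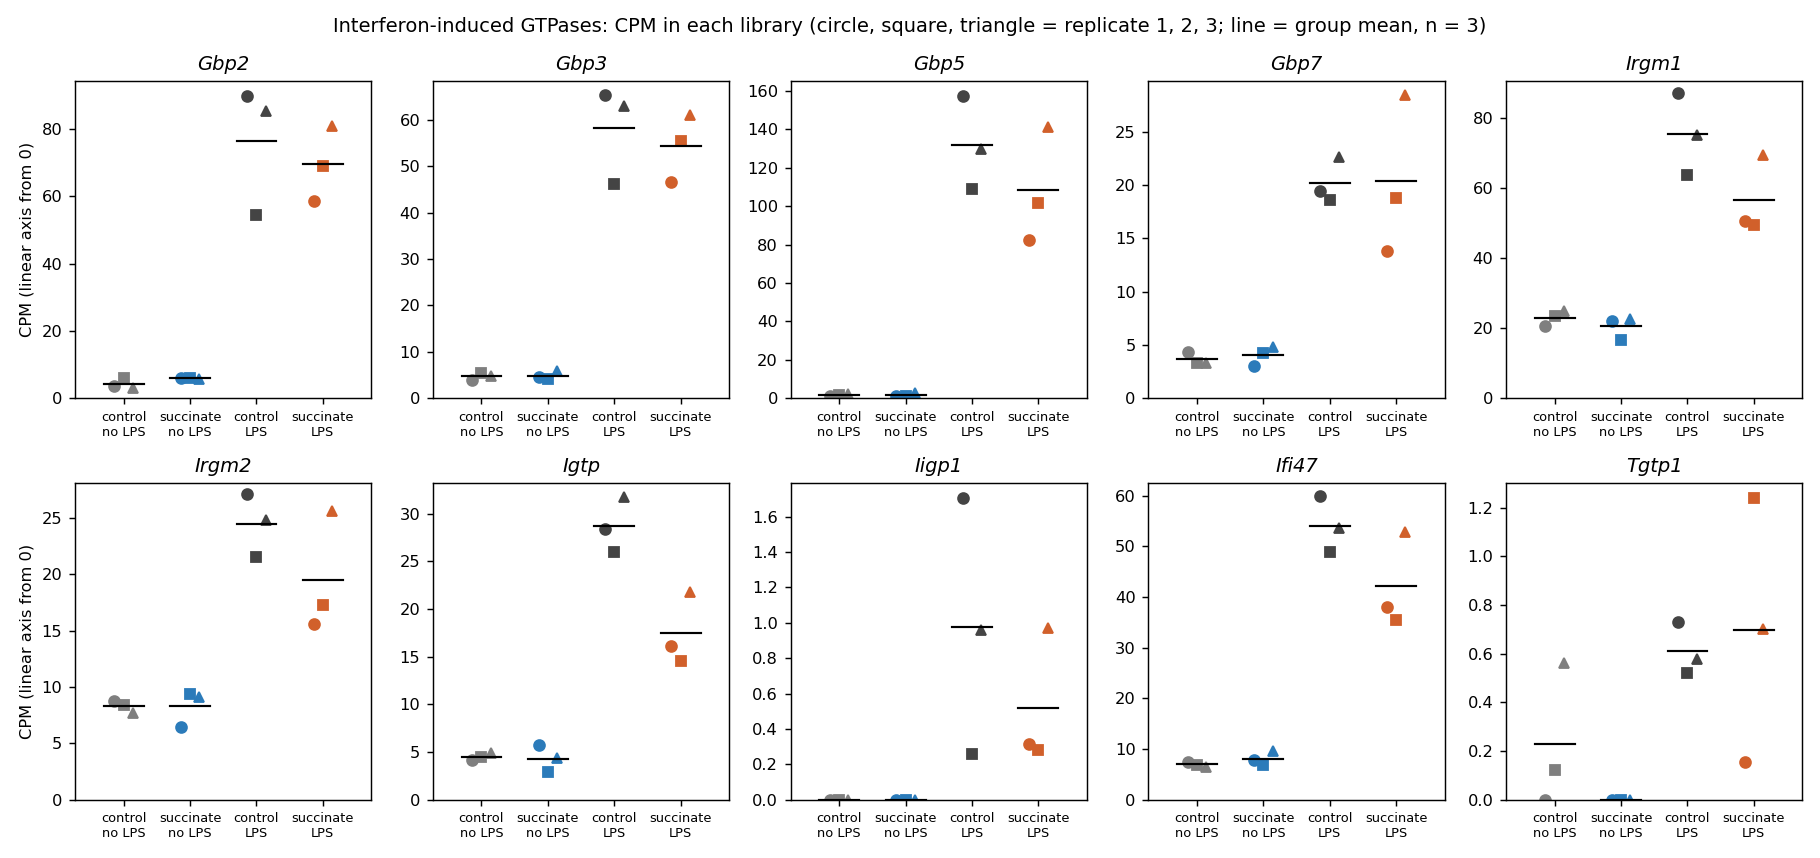
CPM of each member in the 12 libraries on linear axes from 0, by group; circles, squares and triangles are replicates 1, 2 and 3 and the line is the group mean. For the 8 members other than Iigp1 and Tgtp1, every LPS library lies above every library without LPS; control LPS replicate 2 is the lowest of its group in all 10 panels.

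LPS raised the 4 guanylate-binding proteins in cells of control mice by 2.47 to 6.43 on the log2 scale. Gbp5, which in the mouse supports NLRP3 inflammasome assembly, was at 0.810, 1.68 and 2.12 CPM in the 3 control libraries without LPS and at 157, 109 and 130 CPM in the 3 with LPS. It went from a level above 9.07% of the genes with a known length to one above 80.9%. Its log2 fold change was 6.43 ± 0.36 (SE; adjusted p = 6.19e-09, edgeR), the 44th largest rise of 14324 genes. Gbp2, a prenylated member that targets pathogen vacuoles, had 3.47, 6.01 and 2.87 CPM without LPS and 89.9, 54.5 and 85.4 CPM with it. Its change was 4.21 ± 0.26 (adjusted p = 1.53e-08). No Gbp2 library with LPS came near the range without it, although replicate 2 with LPS stood below the other two. Gbp3 moved from 3.82, 5.47 and 4.81 CPM to 65.4, 46.2 and 63.0 CPM, a change of 3.63 ± 0.19. Gbp7, which is known to support oxidative and autophagic killing, had the smallest change of the 4: 4.34, 3.25 and 3.31 CPM without LPS, 19.4, 18.6 and 22.6 CPM with it, and a log2 fold change of 2.47 ± 0.26 (adjusted p = 3.38e-06). Its exons overlap those of Gm43802 by 637 bases, and 10% of its 100-base windows also occur in other genes. Part of its reads could thus be assigned elsewhere.

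The regulatory IRGs rose too, by 1.56 to 2.67 on the log2 scale in control mice. Irgm1 was at 20.5, 23.3 and 24.8 CPM in control cells without LPS and 86.9, 63.6 and 75.1 CPM with LPS (log2 fold change 1.72 ± 0.17, adjusted p = 1.66e-06). Irgm2, whose product dampens caspase-11 responses, was at 8.74, 8.41 and 7.68 CPM and then at 27.1, 21.6 and 24.8 CPM (1.56 ± 0.20, adjusted p = 2.39e-05). Igtp had 4.17, 4.51 and 4.87 CPM without LPS and 28.4, 26.0 and 31.8 CPM with it (2.67 ± 0.22, adjusted p = 3.41e-07). The groups did not overlap for any of the 3. Igtp and Irgm2 share 162 exonic bases of overlap, and 5.16% of the 100-base windows of Igtp also occur in Irgm2, so a small part of their reads could be assigned to either.

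Among the effector IRGs, Ifi47 was the abundant one. Its levels in control cells were 7.46, 6.91 and 6.55 CPM without LPS and 59.9, 48.8 and 53.6 CPM with LPS, a log2 fold change of 2.95 ± 0.18 (adjusted p = 1.37e-08). Ifi47 has 217 exonic bases of overlap with its neighbours Olfr56 and Gm12188, and 0.842% of its 100-base windows occur in other genes. Iigp1, on chromosome 18 (chr18:60376027-60392634, plus strand), had no count in any of the 6 libraries without LPS, which allows at most 0.0601 CPM over the control group (3 counts). With LPS it had 28, 4 and 15 counts in control cells and 6, 5 and 18 in succinate cells. With the group without LPS set at 3 counts, Iigp1 was 16.5-fold higher with LPS in control mice (edgeR adjusted p = 0.00367). In succinate mice it was 9.02-fold higher in the same way (edgeR adjusted p = 0.0117). Both folds bound only the group without a count and leave out the counting error with LPS. Iigp1 levels were low, and the call was lost within a library class. The edgeR adjusted p was then 0.112 (low) and 0.0825 (high) in control mice and 0.174 (low) in succinate mice. The fitted log2 values there, which rest on groups without a count and are no bound, were 7.12, 7.01 and 6.21, beside 7.07 and 6.17 over all libraries in control and succinate mice.

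Tgtp1 cannot be read on its own, because 73.1% of its 100-base windows also occur in other genes, 70.3% in Tgtp2. It had 0, 2 and 9 counts in control cells without LPS and 12, 8 and 9 with LPS, and its change of 1.42 ± 0.92 did not pass (adjusted p = 0.284). In succinate cells it had 0 counts in all 3 libraries without LPS and 3, 22 and 13 with LPS. With the empty group set at 3 counts this was 11.8-fold higher (edgeR adjusted p = 0.00774, and 0.101 within the low library class). With the counts of Tgtp1 and Tgtp2 summed, the LPS change was 2.50 in control mice (adjusted p = 0.000468) and 2.35 in succinate mice (adjusted p = 0.000687). Tgtp2 by itself rose by 2.72 ± 0.44 in control mice and 2.15 ± 0.41 in succinate mice.

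Counted together, 9 of the 10 members were called higher with LPS in control mice, where 15.3% of all tested genes were, and 10 of 10 in succinate mice, against 14.1%. The groups with and without LPS did not overlap for 9 members in control mice (22.3% of all genes were higher without overlap) and for 10 in succinate mice (19.9%). Iigp1 and Tgtp1 passed the filter only through libraries with LPS. Their calls and separation were thus favoured in advance and are no support. Of the 8 members without these genes, 8 were called higher in control mice and 8 in succinate mice. The median log2 fold change over the 10 members was 2.81 in control mice, where that of all genes was -0.0036. In succinate mice it was 2.94, where that of all genes was -0.0166. It was 2.78 with Iigp1 and Tgtp1 each set at 3 counts over the group without LPS. Over the 8 members without Iigp1 and Tgtp1 the median was 2.81 in control mice and 2.36 in succinate mice. Dendritic cell markers also summed higher with LPS (18.9 to 29.1 CPM, against 6.83 to 13.2 CPM without it). Of 7 neutrophil markers 3 were called higher and 2 lower in control mice, against 15.3% and 14.8% of all genes. The neutrophil list summed to 3994 to 7083 CPM without LPS and 6959 to 9739 CPM with it. The part of either marker list in the GTPase results was not tested. The summed level of the members went from 56.8 ± 3.24 to 471.2 ± 75.4 CPM in control mice and from 57.2 ± 6.55 to 389.3 ± 83.8 CPM in succinate mice (SD, n = 3).

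In succinate mice the LPS changes of the 4 guanylate-binding proteins were 6.22 ± 0.35 for Gbp5, 3.57 ± 0.24 for Gbp2, 3.50 ± 0.19 for Gbp3 and 2.34 ± 0.26 for Gbp7. Those of the IRGs were 2.38 ± 0.17 for Ifi47, 2.02 ± 0.22 for Igtp, 1.46 ± 0.17 for Irgm1 and 1.23 ± 0.20 for Irgm2. In both kinds of mice the rises of Gbp5, Gbp2 and Gbp3 were thus larger than those of Irgm1, Irgm2 and Igtp in fitted value, with no test between genes.

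**Figure D3:**
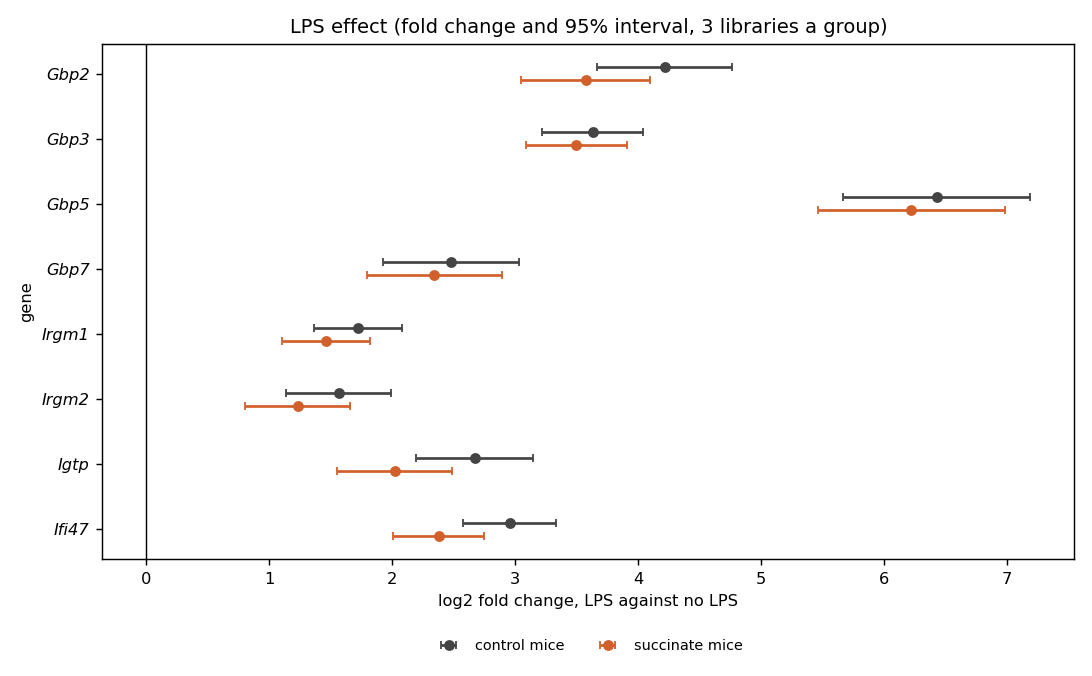
Log2 fold change with LPS against without LPS for 8 members in control and in succinate mice; points are edgeR estimates and bars 95% intervals, 3 libraries a group. Gbp5 is highest at 6.43 and 6.22, and no interval reaches 0; Iigp1 and Tgtp1 are left out because groups without a count give no interval.

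After LPS the order of levels was different. Gbp2 led in control mice at 30.4 CPM/kb (range 21.6 to 35.8), and the next were Ifi47 at 21.9 CPM/kb, Gbp5 at 19.9, Gbp3 at 17.8, Igtp at 14.2 and Irgm1 at 12.9, each overlapping its neighbour. Irgm2 (6.63 CPM/kb) and Gbp7 (3.60) stood apart below them without overlap. Tgtp1 (0.190 CPM/kb) and Iigp1 (0.168) stayed near the bottom. In succinate mice Gbp2 also led, at 27.6 CPM/kb (23.3 to 32.2), without overlapping Ifi47 at 17.02. Gbp3 (16.7 CPM/kb) and Gbp5 (16.3) overlapped Ifi47, and Irgm1 (9.70) and Igtp (8.64) followed below Gbp5 without overlap.

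**Figure D4:**
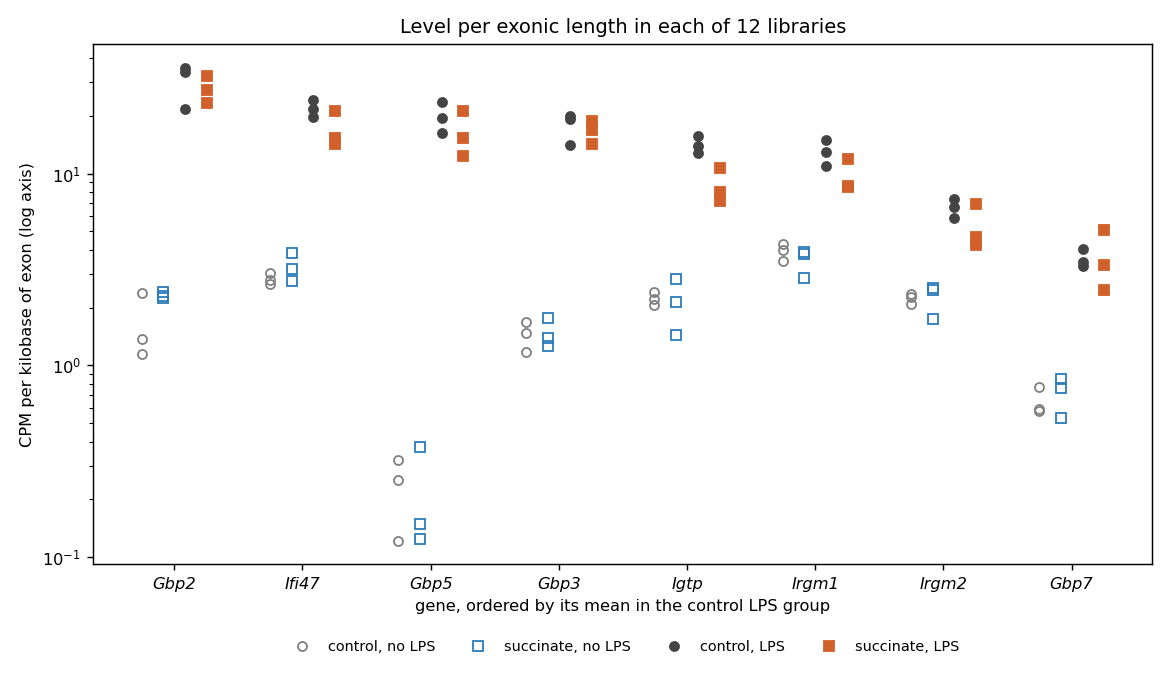
CPM per kilobase of exon on a log axis for the 8 members with counts in every library, ordered by their mean in control cells with LPS; each point is a library. Gbp5 crosses from the bottom without LPS (0.232 CPM/kb in control mice) to 19.9 with LPS, while Irgm1 goes from the top (3.93) to 12.9.

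Within the LPS groups the same libraries were high or low for most members. Control LPS replicate 2 had the lowest level of its group for 10 of 10 members, and replicate 1 the highest for 8. Succinate LPS replicate 3 was highest for 9 of 10 members, and the lowest was replicate 1 for 6 and replicate 2 for 4. The summed level of the members was 536.8, 388.9 and 487.8 CPM in the control LPS libraries and 321.8, 363.1 and 483.1 CPM in the succinate LPS libraries, so succinate LPS replicate 3 lay inside the control range and the other two below it.

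Succinate alone left no member changed by the test. Without LPS, 0 of 10 members were called between succinate and control mice, as were 0 of the 14324 genes (0%). At an unadjusted p under 0.05, 1 member passed (Tgtp1, unadjusted p = 0.0225, on 0, 2 and 9 counts against none), as did 3.73% of all genes. DESeq2 and limma-voom called no member. For no member were the 2 groups apart; over all genes 3.65% were higher and 4.27% lower without overlap. The median over the members was 0.0022 on the log2 scale, that of all genes 0.0058. Gbp2 had the lowest p of the well-detected members, at 3.47, 6.01 and 2.87 CPM in control and 5.82, 6.07 and 5.63 CPM in succinate mice; the difference of 0.50 had a 95% interval from -0.06 to 1.06 (unadjusted p = 0.0763). The 2 groups overlapped, because control replicate 2 was as high as the succinate libraries. The intervals for Irgm1 (-0.52 to 0.20), Irgm2 (-0.43 to 0.44), Igtp (-0.56 to 0.43), Gbp3 (-0.40 to 0.47), Ifi47 (-0.17 to 0.60), Gbp7 (-0.43 to 0.72) and Gbp5 (-1.04 to 0.88) all held 0.

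With LPS, succinate against control gave 0 of 10 members called; 9 of 14324 genes (0.0628%) were, all lower. DESeq2 and the fit with no filter on low counts each called 1 member, Igtp, and limma-voom none. The fitted differences were negative for 8 of 10 members, with a median of -0.31 against -0.0142 for all genes, of which 47.8% were positive. Scaled by library size alone, 7 of 10 were negative and Gbp3 changed sign; that scaling moved the median of all genes by 0.12, and the members' median was -0.19 beside 0.11 for all genes. B cell markers (5 genes, all tested, none called) summed to 11.6 to 17.9 CPM in the control LPS libraries and 20.7 to 27.8 CPM in the succinate LPS libraries, and to 8.39 to 16.2 and 17.8 to 23.3 CPM without LPS. Ly6C-high monocyte markers (8 genes, all tested, none called, 1 of 8 positive with LPS) summed to 7854 to 8511 CPM in the control LPS and 6432 to 7503 CPM in the succinate LPS libraries, and to 5628 to 6553 and 4861 to 5275 CPM without LPS. The median of their differences with LPS was -0.32, near that of the members. Without LPS the median of these markers was -0.26, with 0 of 8 positive, where that of the members was 0.0022. The part of either list was not tested. Leaving out succinate LPS replicate 3 took the members' median to -0.54, and leaving out succinate LPS replicate 1 took it to -0.15. The number of all genes called also hung on single libraries: it was 197 without succinate LPS replicate 3, 79 without control LPS replicate 3, 27 and 25 without succinate replicate 3 and replicate 1 of the group without LPS, 3, 3 and 0 without control replicate 1, 2 and 3 of the group without LPS, and 0 without any one of the remaining 4 LPS libraries.

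Igtp showed the clearest difference of the 10. It was at 28.4, 26.0 and 31.8 CPM in control cells with LPS and 16.2, 14.6 and 21.7 CPM in succinate cells with LPS. The 2 groups did not overlap; 10.2% of all genes were lower in this way. The log2 difference was -0.72 ± 0.20 (95% interval -1.15 to -0.29; unadjusted p = 0.00300), and the adjusted p of 0.151 missed the threshold in edgeR. Across 23 alternative settings it ranged from -0.90 to -0.59, always below 0, with adjusted p from 0.0128 (no filter) to 0.559 (without succinate LPS replicate 1). DESeq2 gave -0.72 with an adjusted p of 0.0227. Within the low library class, which holds 2 control and 3 succinate LPS libraries, it was -0.64 (adjusted p = 0.207), and with the class as a covariate -0.74 (adjusted p = 0.112).

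Irgm1, Ifi47 and Irgm2 gave smaller differences than Igtp with LPS. Irgm1 was at 86.9, 63.6 and 75.1 CPM in control and 50.4, 49.4 and 69.2 CPM in succinate cells, a difference of -0.42 with an interval from -0.76 to -0.07 (unadjusted p = 0.0213, adjusted p = 0.326). Its groups overlapped through succinate replicate 3. Ifi47 had 59.9, 48.8 and 53.6 CPM against 38.0, 35.5 and 52.8 CPM, a difference of -0.36 with an interval from -0.70 to -0.02 (unadjusted p = 0.0374, adjusted p = 0.389). These 2 genes and Igtp were the 3 members with an unadjusted p under 0.05, which 11.7% of all genes had. Irgm2 was at 27.1, 21.6 and 24.8 CPM against 15.6, 17.3 and 25.6 CPM, and its interval (-0.74 to 0.08) held 0. Iigp1 had a fitted difference of -0.90 (-2.51 to 0.71; adjusted p = 0.699) and Tgtp1 one of 0.18 (-1.54 to 1.91), both on few counts.

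The intervals of the guanylate-binding proteins all held 0 with LPS. Gbp2 was at 58.5, 69.0 and 81.0 CPM in succinate cells with LPS, within the control range, and its difference was -0.14 (interval -0.59 to 0.31). Gbp3 had 46.5, 55.4 and 61.2 CPM and a difference of -0.10 (-0.45 to 0.25). Gbp5 had 82.3, 101.7 and 141.4 CPM, with a difference of -0.28 (-0.82 to 0.26) that leaves room for either sign. Gbp7 had 13.8, 18.8 and 28.5 CPM and a difference of 0.01 (-0.49 to 0.51). Whether the IRGs and the guanylate-binding proteins differed from each other in this contrast was not tested.

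**Figure D5:**
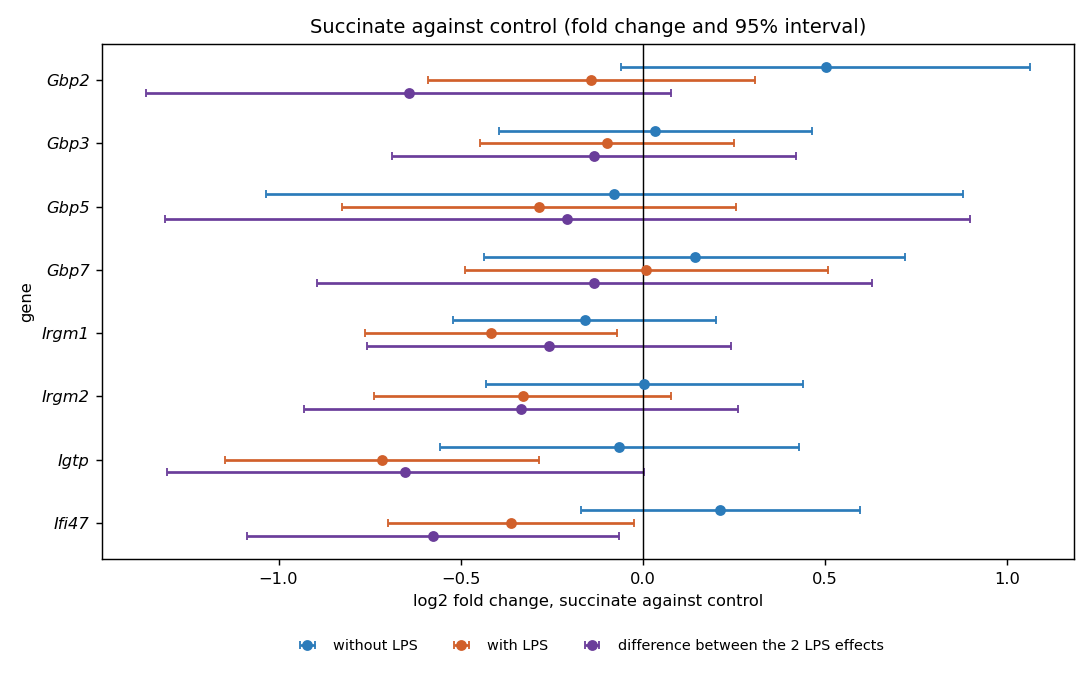
Succinate against control for 8 members, without LPS, with LPS and as the difference between both LPS effects; points are log2 fold changes and bars 95% intervals. With LPS the intervals of Irgm1, Igtp and Ifi47 lie below 0, with unadjusted values only; no member passed after adjustment over all genes.

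The test of whether succinate altered the LPS response itself is the difference between the LPS effects of succinate and control mice. It called 0 of 10 members and 0 of 14324 genes (0%) in edgeR; DESeq2 and limma-voom called no member. Its fitted values were negative for 9 of 10 members with a median of -0.30, beside -0.0255 for all genes, of which 45.9% were positive. These values share the LPS libraries with the comparison above. The median was -0.52 without succinate LPS replicate 3 and -0.19 without succinate LPS replicate 1. Ifi47 had -0.57 ± 0.24 (interval -1.09 to -0.06; unadjusted p = 0.0300, adjusted p = 0.9999), Igtp -0.65 ± 0.31 (-1.31 to 0.00; unadjusted p = 0.0508) and Gbp2 -0.64 ± 0.34 (-1.36 to 0.08; unadjusted p = 0.0764). Tgtp1 was the other member with an unadjusted p under 0.05 (unadjusted p = 0.0296), with a positive value that rests on its group without a count, and the value was -0.16 with its copies summed. In all, 2 members and 3.91% of all genes had an unadjusted p under 0.05.

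The remaining GTPases of both families, with the dynamin-like Mx genes and the very large GVIN GTPases, were mostly higher with LPS too. Of 26 listed genes 15 passed the filter and 4 (Gbp11, Gm17662, Gm12187 and Gm43302) had no count in any library. In control mice 11 of the 15 were called higher with LPS and 1 lower, against 15.3% and 14.8% of all genes. Gbp6, Gm5431 and Gm12185 passed the filter only through libraries with LPS, so their calls were favoured in advance. Mx1, an antiviral GTPase, rose by 4.94 ± 0.29, from 2.57 ± 0.99 to 79.5 ± 26.1 CPM, and Mx2 by 4.17 ± 0.39. Gm12250, the gene of Irgb10 that acts on bacterial membranes, rose by 4.25 ± 0.28, from 0.863 ± 0.16 to 16.5 ± 3.32 CPM. Its RefSeq window held 2 ISRE cores around a GAS core. Of the chromosome 5 guanylate-binding proteins, Gbp9 rose by 2.58 ± 0.40 and Gbp4 by 2.18 ± 0.51. Gbp6 went from 3 counts over the control group to 121, a ratio of 42.5 (95% counting interval 14.2 to 209). Tgtp2, Gvin1 (2.17 ± 0.35), Gm4070 (2.88 ± 0.40), Gm5431 (3.76 ± 0.44) and Gm12185 (2.58 ± 0.80) were the others called higher, and Irgc1, an IRG that is not interferon-induced and is best known from the testis, was lower (-1.78 ± 0.46). Irgq and the pair 9930111J21Rik1 and 9930111J21Rik2 did not pass, at -0.33, 0.36 and 0.21.

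In succinate mice 9 of the 15 were higher with LPS and 2 lower (Irgq at -0.43 ± 0.14 and Irgc1 at -1.41 ± 0.44). Of all genes 14.1% were higher and 16.2% lower in these mice. Gbp4 (1.05 ± 0.44, adjusted p = 0.0879) and Gm12185 (1.79 ± 0.77, adjusted p = 0.0965) did not pass there. The test of the difference between the mice did not pass for either gene (adjusted p = 0.9999 for both). In neither succinate comparison was any of the 15 called, nor in the difference between LPS effects. With LPS their median difference between succinate and control was -0.33; Mx1 was at 79.5 ± 26.1 and 50.03 ± 6.75 CPM (-0.67 ± 0.23, adjusted p = 0.248) and Gm12250 at 16.5 ± 3.32 and 10.99 ± 2.95 CPM (-0.58 ± 0.22, adjusted p = 0.299). Several of these genes share exons or sequence with neighbours, and counting by strand is not given in the sources used here.

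The interferon pathway, a known inducer of these GTPases, was mostly higher with LPS. Of 20 listed genes 18 were tested. In control mice 14 of these were called higher and 1 lower, against 15.3% and 14.8% of all genes. The 4 with the smallest p were Jak2 (2.36 ± 0.13), Tyk2 (1.98 ± 0.16), both kinases of interferon receptors, Irf1 (1.99 ± 0.17), the transcription factor that binds ISRE-like elements of GTPase promoters, and Usp18 (3.49 ± 0.31), a negative regulator of type I signalling. The gene called lower was Irf8 (-1.26 ± 0.29), named here because it was the single one. In succinate mice 10 were called higher and 1 lower, against 14.1% and 16.2% of all genes, with Irf1 at 1.22 ± 0.17.

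Transcripts of the interferons themselves were scarce. Ifnb1, interferon beta, had no count without LPS, 15 counts over the control LPS group and 15 over the succinate LPS group. Ifng, interferon gamma, had 0 counts over both control groups, 2 over the succinate group without LPS and 3 over that with LPS. Neither passed the filter. Succinate called none of the 18 pathway genes, with or without LPS. With LPS, 17 of the 18 differences were negative, with a median of -0.27, beside -0.0142 for all genes, of which 47.8% were positive. The groups did not overlap for 6, all lower, where 10.2% of all genes were lower in this way. Irf1 was at 168.7 ± 50.3 CPM in control and 106.9 ± 7.69 CPM in succinate cells with LPS (-0.66 ± 0.16, adjusted p = 0.105), and it was called in 4 of 23 alternative settings.

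Genes that load or modify the GTPases had median LPS changes near that of all genes in control mice. The median was -0.06 for the ATG8 list and -0.16 for the prenylation list, beside -0.0036 for all genes. Lists were not tested against each other. Of the list of 14 genes around the ATG8 conjugation machinery, which directs IRGs and guanylate-binding proteins to vacuoles, 1 was called higher and 3 lower with LPS in control mice, where 15.3% of all genes were higher and 14.8% lower. The 3 lower were Atg7 (-0.64 ± 0.14), Map1lc3b (-0.51 ± 0.10) and Atg12 (-0.45 ± 0.14). In succinate mice 0 were higher and 4 lower, where 14.1% of all genes were higher and 16.2% lower. Of 8 prenylation genes in control mice, Zmpste24 was higher (0.39 ± 0.14) and Icmt lower (-0.33 ± 0.11), against 15.3% and 14.8% of all genes. The counts were the same in succinate mice, against 14.1% and 16.2%. Among 12 genes acting downstream of guanylate-binding proteins, 7 were higher and 1 lower in control mice, against 15.3% and 14.8% of all genes. Casp4, the LPS-sensing caspase, rose by 2.70 ± 0.18, Nlrp3 by 2.62 ± 0.17, Cybb, the NADPH oxidase subunit that Gbp7 helps to place, by 2.08 ± 0.13, and Trim21 by 1.53 ± 0.17. In succinate mice 6 were higher and 0 lower, against 14.1% and 16.2% of all genes. No gene of these 3 lists was called in a succinate comparison.

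The genes whose profile over the 12 libraries was most like that of the members were found by the root mean square difference between centred log2 CPM profiles, with predicted genes and other GTPases left out. They were Slc44a1, a choline transporter (0.144), Pou2f2, the transcription factor Oct-2 (0.158), Clec4a1, a C-type lectin receptor (0.185), Mndal, an interferon-inducible HIN-200 family gene (0.187), and Slco3a1, an organic anion transporter (0.197). Each of these was nearer to the mean of the members than any member was: the nearest member, Ifi47, was at 0.220 and the farthest, Gbp5, at 1.76. Slc44a1 had 11.95 ± 2.25 CPM in control and 11.8 ± 2.15 CPM in succinate cells without LPS, and 103.6 ± 13.2 and 75.9 ± 22.5 CPM with LPS (SD, n = 3).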

How the data were processed

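Total RNA was sequenced from 12 monocyte libraries, 3 in each of 4 groups, taken from the sample titles. The authors deposited raw counts per gene; reads were trimmed with Trim Galore and the build was mm10, per the submitters' processing notes. Aligner, counter, annotation and strand setting: not given in the sources used here. All rows name a gene. The counts were analysed with edgeR 4.0.16 (R 4.3.3): filterByExpr, TMM scaling, 1 quasi-likelihood fit over all 12 libraries, 5 contrasts, Benjamini-Hochberg adjustment over all 14324 tested genes, called at 0.05. CPM are TMM-scaled. Exonic lengths came from GENCODE M21, where 54409 of 54532 gene IDs matched. The filter kept at least 99.87% of each library's counts, and the common biological coefficient of variation was 0.167. On simulated counts for control mice with and without LPS (14324 genes), 65 of 97 genes changed by 1 on the log2 scale were called, and 81 of 97 changed by 2. In the same simulation 16 genes without a change were called. It changed far fewer genes than the 4306 called for LPS in control mice, and changed genes lost to the filter were left out. Its rates therefore cannot be carried over to the data. Intervals are at 95% and cover the spread between libraries. Counting intervals cover counting error only, and floors of 3 counts only that of the group without a count.

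The members and lists were chosen with earlier results of these data known. Genes named are all members, every tested gene of the other-GTPase list, of each pathway list up to 4 called genes with the smallest p under LPS in control mice, any called under succinate, Irf1, Ifnb1 and Ifng, and the 5 genes of most similar profile; some genes that this rule names are not reported here. Alternatives were limma-voom 3.58.1, DESeq2 1.42.0, other filters and scalings, a replicate block, a library-class covariate, fits of only the groups compared, summed near copies and leaving out each library; fits within a library class were added after seeing the data. The labels pair no libraries. In the data, deviations from the group means correlated at -0.129 to 0.377 for libraries of equal replicate number (7 of 18 pairs above 0.1, median 0.0945) and at -0.325 to 0.29 for the rest (5 of 36, median -0.0515). Between the 2 groups without LPS all 3 equal-numbered pairs were above 0.1 (0.26, 0.116 and 0.198), which was taken as possible pairing for that comparison only. Its p-values and intervals above come from fits without a block, and the fit with a block is given below. In both of these groups replicate 1 is in the low library class and replicates 2 and 3 in the high class. The part of the class in these correlations was not tested.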

Additional observations from a re-analysis of the deposited data

How the results depend on the processing

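The number of members called kept within 1.5 times of its value under each alternative that could be fitted, except for succinate against control with LPS, where it went from 0 to 1 (Igtp) with no filter on low counts and to 1 with DESeq2. Leaving out each library in turn gave 9 to 9 members called for LPS in control mice, 10 to 10 in succinate mice and 0 to 0 for the succinate and difference tests, and no called result changed direction. Members that were not called did change sign: Irgm2 without LPS in 12 of 24 settings, while the difference between LPS effects ran from -0.50 to 0.46 for Gbp5 and from -0.46 to 0.63 for Gbp7. The members' median for succinate without LPS went from 0.0022 to -0.0676 without succinate replicate 3 and to 0.115 without succinate replicate 1 of that group. Over all genes, succinate with LPS called 9 genes, 694 with no filter, 346 with DESeq2, 190 with the library-class covariate, 34 with limma-voom, 30 with the stricter filter, and 0 with only the groups compared or with library size alone. Without LPS the numbers were 0, 72 with no filter and 1 with DESeq2, and for the difference between LPS effects 0, 71 and 3. The causes were not tested. The high library class holds no succinate LPS library and gave no value for tests that need one. With Tgtp1 and Tgtp2 summed, Tgtp1 passed under LPS in control mice.

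With the replicate number as a block, 9 members were called for LPS in control mice, 10 in succinate mice and 0 in each of the other tests; over all genes, succinate with LPS called 77 and succinate without LPS 0, so the block changed no count of members called. Iigp1 and Tgtp1 rest on few counts, so depth limits both.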
